A study of Mus musculus with 12 samples.

Results

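Proteins of the BCL2 family set whether a cell opens the outer membrane of its mitochondria and commits to apoptosis, and 10 genes of the family were followed here in hematopoietic stem cells (HSCs) after ionizing radiation (IR). The genes were taken by name, 10 of the 31272 gene names listed for each library. They were the pro-survival genes Bcl2, Bcl2l1 (BCL-XL) and Mcl1, the pore-forming effector Bak1, and the BH3-only genes Bcl2l11 (BIM), Bid, Bad, Pmaip1 (NOXA), Bmf and Bik. RNA was sequenced from bone marrow cells labelled as HSCs of wild-type mice, in 4 groups of 3 libraries labelled Ctrl, IR, Ab_IR and L_IR. Ctrl stands for control, whereas Ab and L are not explained in the labels and are kept as written. Cells were collected at 3 days post IR (dpi), a time that the labels give for all 12 libraries without a separate time for Ctrl. The methods describe C57BL/6 mice and a sort of Lineage- Sca-1+ c-Kit+ Flt3- CD34- cells. The age of the mice and the number behind each library are not given, so p-values measure the spread between libraries, which may be technical.

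In healthy cells the pro-survival proteins hold BAK and BAX in check at the mitochondrial membrane. BH3-only proteins are the sensors of stress, which bind the pro-survival proteins and, in the case of BIM and BID, can also activate BAK and BAX directly, whereupon cytochrome c leaves the mitochondria and caspases are switched on. Blood cells lean on this balance heavily: MCL1 is required for the survival of HSCs, and the BH3-only genes Bbc3 (PUMA) and Pmaip1 are textbook targets of the DNA damage sensor p53.

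Values were FPKM, fragments scaled by gene length and by library size, so levels can be compared between genes. FPKM carry no read depth, so intervals for counting error were not computed. Differences were tested with limma on log2(FPKM + 1) and adjusted over all genes tested, a scale that understates changes of genes near 1 FPKM. Ctrl replicate 1 stood apart, since 44.1% of its genes were listed at 0 while the other 11 libraries had 24.7% to 27.3%. Nppa, an atrial hormone gene, was listed at 51.2 to 63.9 FPKM in all IR libraries and at most at 0.26 FPKM in Ab_IR and L_IR, and within Ctrl it was listed from 0 to 62.5 FPKM. The sum of 8 heart transcripts, Nppa among them, was 0.26 to 141 FPKM in Ctrl, 115 to 147 in IR, 0.35 to 0.59 for Ab_IR and 0.29 to 0.48 for L_IR. Of these 8, Myl3 stayed under 1 FPKM in every library. What separates these libraries and the contrast of Ab_IR or L_IR with IR cannot be told apart, except through Ctrl replicate 1, which lists Nppa at 0.

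Of 12 HSC and progenitor markers, Slamf1, Mecom, Hoxb5 and Fgd5 stayed under 1 FPKM in all 12 libraries, whereas Hlf, another marker of long-term HSCs, had 1.14 to 2.40 FPKM and Procr 0.30 to 1.26. Flt3, against which the cells were gated, had 9.13 to 12.1 FPKM in Ctrl, 0.96 to 1.22 in IR, 7.45 to 7.57 for Ab_IR and 5.6 to 6.02 for L_IR. Cd34, also gated against, had 19.0 to 20.7, 3.66 to 3.91, 16.8 to 18.3 and 15.6 to 16.1 in the same order. Kit and Ly6a (Sca-1), for which the cells were gated, went opposite ways. Kit had 21.3 to 25.5 FPKM in Ctrl, 6.7 to 7.0 in IR, 17.4 to 19.1 for Ab_IR and 17.8 to 18.0 for L_IR, and Ly6a had 25.9 to 41.1, 53.7 to 61.5, 35.7 to 41.2 and 45.4 to 45.8 in the same order. The 12 markers summed to 163 to 179 FPKM in Ctrl, 101 to 110 in IR, 145 to 166 for Ab_IR and 152 to 160 for L_IR. Markers of other blood cells were present and differed by group. The summed FPKM of 8 erythroid markers was 2465 to 3017 in Ctrl, 442 to 453 in IR, 2560 to 2764 for Ab_IR and 1313 to 1368 for L_IR. Of these marker lists, Ms4a1 and Pax5 of the B and plasma cell list and Mcpt4 of the mast cell list stayed under 1 FPKM in all 12 libraries. The sum of 10 neutrophil and monocyte markers was 9724 to 11308 in Ctrl, 14145 to 14480 in IR, 10347 to 10979 for Ab_IR and 8400 to 8622 for L_IR. The sum of 10 B and plasma cell markers, mostly Igkc, was 9982 to 13205, 17243 to 18459, 17786 to 18405 and 25500 to 26373 in the same order. Megakaryocyte and platelet markers summed to 66.2 to 76.2, 13.8 to 15.9, 151 to 154 and 92.7 to 98.3, macrophage markers to 84.1 to 87.9, 58.5 to 63.3, 88.9 to 98.5 and 84.0 to 93.3, and mast cell and basophil markers to 598 to 680, 211 to 219, 793 to 845 and 495 to 519. The part of these cells in the differences of the BCL2 family was not tested, and in such bulk RNA fewer cells of a type and less RNA per cell cannot be told apart.

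Across the family, 2 genes dominated the transcript pool. Mcl1, whose short-lived protein guards HSCs, ranged from 73.3 to 96.5 FPKM over the 12 libraries and made up 87.7% to 91.6% of the summed FPKM of the 3 pro-survival genes. Bak1 ranged from 57.2 to 107 FPKM. Among the BH3-only genes, Bid and Pmaip1 together held 76.0% to 86.7% of the summed FPKM. Bcl2, Bcl2l1, Bcl2l11 and Bad lay between 1.81 and 8.63 FPKM. Bmf at 0.45 to 0.86 FPKM and Bik at 0 to 0.34 FPKM were too low to pass the filter of 1 FPKM in at least 3 libraries, so 8 of the 10 genes were tested in every comparison.

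**Figure D1:**
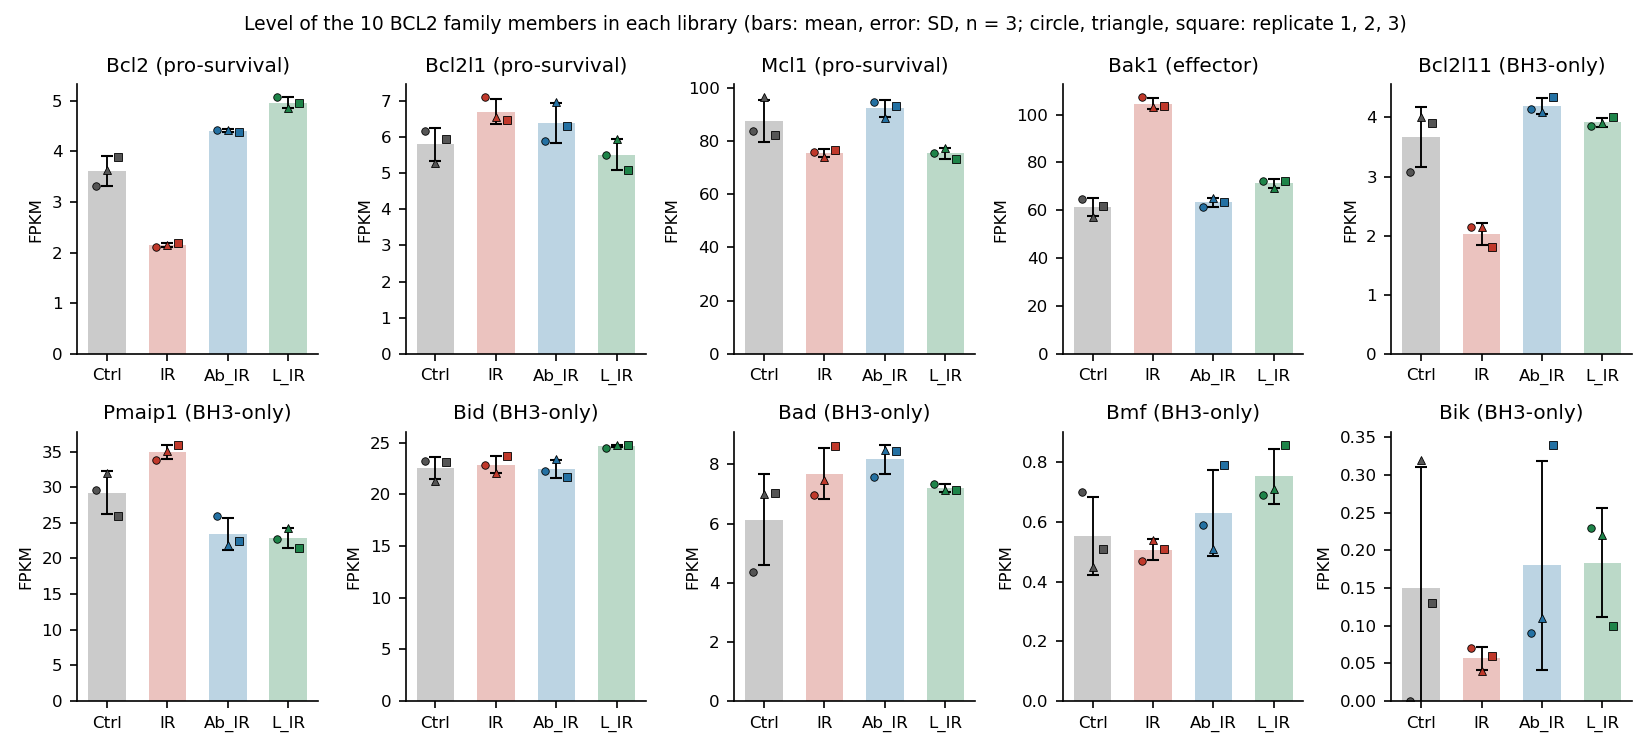
FPKM of the 10 BCL2 family genes, 1 panel per gene, with the groups Ctrl, IR, Ab_IR and L_IR on the horizontal axis. Bars are means and error bars SD of 3 libraries, and symbols are the libraries. Bcl2 and Bcl2l11 are lowest and Bak1 and Pmaip1 highest in IR, while Mcl1 is high in Ctrl and Ab_IR.

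Bcl2 and Bcl2l11, the BH3-only antagonist that binds BCL2, had alike profiles over the groups, with Pearson's r of log2(FPKM + 1) of 0.934 across the 12 libraries, given as a description. Their promoters are shown because both fell in IR relative to Ctrl and rose in Ab_IR and L_IR relative to IR, by over 0.5 on the log2 scale each time. In the RefSeq promoter table of GRCm38.p6, 8 of the 10 genes had a window, without Bik and Pmaip1. The 250 bases upstream of the start of Bcl2 lie at chr1:106714291-106714540 on the minus strand, and those upstream of the first start of Bcl2l11 at chr2:128125788-128126037 on the plus strand. Capitals mark each GC box, GGGCGG on either strand.
Bcl2: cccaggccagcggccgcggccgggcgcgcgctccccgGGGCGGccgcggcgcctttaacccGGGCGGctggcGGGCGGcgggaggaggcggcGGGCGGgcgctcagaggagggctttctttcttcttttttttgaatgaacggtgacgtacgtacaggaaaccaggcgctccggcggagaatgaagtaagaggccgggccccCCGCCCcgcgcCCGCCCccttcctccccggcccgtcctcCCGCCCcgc
Bcl2l11: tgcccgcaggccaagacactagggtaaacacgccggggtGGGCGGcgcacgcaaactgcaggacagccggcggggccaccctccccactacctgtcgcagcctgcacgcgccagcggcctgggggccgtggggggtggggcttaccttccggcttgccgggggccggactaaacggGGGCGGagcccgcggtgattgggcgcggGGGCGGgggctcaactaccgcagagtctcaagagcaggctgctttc
The Bcl2 window held 7 GC boxes and the Bcl2l11 window 3, with 74.8% and 72.0% G and C against a median of 52.4% over all 32851 windows of this length. At least 1 GC box stood in 32.7% of those windows, at least 3 in 8.47% and at least 7 in 0.411%. The Bcl2l11 window also held 1 match each to GTAAACA, a FOXO site found in 3.17% of all windows, and to CCAAT, found in 33.9%, neither of which was in the Bcl2 window. Both windows held GGAA, the ETS core, as did 93.5% of all windows. The motifs TATAAA (in 12.4% of all windows), CACGTG (6.02%), TTCNNNGAA (7.02%), AGATAA (9.99%) and the p53 consensus decamer (7.13%) had no match in either, and no match overlapped a GC box. Both strands were searched, and a match describes letters and not a bound site.

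Bcl2, the founding pro-survival gene (chr1:106538178-106714274, minus strand, GRCm38), was listed at 3.32, 3.63 and 3.90 FPKM in Ctrl replicates 1 to 3. The IR libraries had 2.11, 2.15 and 2.20, the Ab_IR libraries 4.43, 4.42 and 4.38, and the L_IR libraries 5.07, 4.85 and 4.96. None of the 4 groups overlapped, in the order L_IR, Ab_IR, Ctrl and IR. IR was 1.68-fold lower than Ctrl by the means (log2 difference of -0.55, SE 0.0786, adjusted p = 0.00233). Relative to IR, Bcl2 was 2.05-fold higher in Ab_IR (log2 difference 0.78, SE 0.0442, adjusted p = 5.66e-06) and 2.30-fold higher in L_IR (0.92, SE 0.0408, adjusted p = 2.64e-06). Ab_IR lay below L_IR by 0.14 on the log2 scale (SE 0.0414, adjusted p = 0.0342), a call lost when any library of the pair was left out. It was also lost with no filter, with all 12 libraries in 1 fit and with the replicate block (adjusted p = 0.0644, 0.10 and 0.110). With immunoglobulin genes left out, this difference was -0.26 (adjusted p = 0.00498), and the median of all genes moved by -0.12. L_IR exceeded Ctrl by 0.37 (SE 0.0751, adjusted p = 0.0321), a call lost without Ctrl replicate 2 or any L_IR library (0.36 to 0.38, adjusted p = 0.0736 to 0.173), with no filter and with the replicate block (both 0.37, adjusted p = 0.0832 and 0.117). Ab_IR and Ctrl differed by 0.23 with an adjusted p of 0.183. The noncoding gene D630008O14Rik shares 558 exon bases with Bcl2 on the other strand and was listed at 0.04 FPKM or less.

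Mcl1 (chr3:95658788-95663176, plus strand) was listed at 83.8, 96.5 and 82.4 FPKM in Ctrl and at 75.8, 74.1 and 76.8 in IR. Ab_IR had 94.7, 88.9 and 93.4, and L_IR had 75.5, 77.6 and 73.3. Ab_IR and Ctrl thus formed an upper pair and IR and L_IR a lower pair, with no overlap between the pairs. In Ab_IR the gene rose over IR by 0.29 on the log2 scale (SE 0.0366, adjusted p = 3.21e-04) and exceeded L_IR by 0.29 (SE 0.0401, adjusted p = 0.00178). With immunoglobulin genes left out, these differences were 0.13 and 0.14 (adjusted p = 0.0236 and 0.0380), and the medians of all genes moved by -0.13 and -0.12. L_IR and IR were at 75.4 ± 2.14 and 75.5 ± 1.37 FPKM (SD, n = 3), with an adjusted p of 0.956. IR differed from Ctrl by -0.21 with an adjusted p of 0.0730. That difference was -0.24 (adjusted p = 0.0275) without Ctrl replicate 1 and -0.14 (adjusted p = 0.0973) without Ctrl replicate 2, and over the 10 other settings it ran from -0.33 with quantile normalization (adjusted p = 0.0166) to -0.12 with immunoglobulin genes left out (adjusted p = 0.248).

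Bcl2l1 (chr2:152780668-152831728, minus strand), which encodes the BCL-XL protein that erythroid precursors depend on, varied little, from 5.08 to 7.10 FPKM over the 12 libraries. It was listed at 6.17, 5.28 and 5.94 FPKM in Ctrl, 7.10, 6.55 and 6.46 in IR, 5.90, 6.97 and 6.30 for Ab_IR and 5.51, 5.94 and 5.08 for L_IR. IR was above both Ctrl and L_IR in all libraries, and Ab_IR overlapped the other groups. The test was passed by L_IR against IR, where Bcl2l1 fell by 0.24 on the log2 scale (-0.24, SE 0.0600, adjusted p = 0.00960). IR against Ctrl gave 0.18 with an adjusted p of 0.110, 0.22 with 0.0359 without Ctrl replicate 1, and 0.13 with 0.206 without Ctrl replicate 2. It passed with quantile normalization (0.29, adjusted p = 0.0321) and with all 12 libraries in 1 fit with a term for the Nppa split (0.22, adjusted p = 0.0305). The remaining settings that tested the gene did not pass it.

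Bak1 (chr17:27019810-27029009, minus strand), the effector that sits in the mitochondrial membrane, had 64.7, 57.2 and 62.0 FPKM in Ctrl and 107, 103 and 104 in IR. Ab_IR had 61.5, 65.1 and 63.5, and L_IR had 72.4, 69.2 and 72.3. IR stood above the other 9 libraries, L_IR was next without overlap, and Ab_IR overlapped Ctrl. The rise in IR over Ctrl was 1.71-fold (log2 difference 0.76, SE 0.0670, adjusted p = 3.30e-04), and 13.5% of the genes tested changed more. Against IR, Bak1 was 1.65-fold lower in Ab_IR (-0.71, SE 0.0356, adjusted p = 3.13e-06) and 1.47-fold lower in L_IR (-0.55, SE 0.0285, adjusted p = 5.43e-06). Ab_IR lay 0.17 below L_IR on the log2 scale (SE 0.0381, adjusted p = 0.0125), a call lost with the replicate block (adjusted p = 0.0596) and without L_IR replicate 1 or L_IR replicate 3 (both -0.16, adjusted p = 0.0512 and 0.0547). With immunoglobulin genes left out this difference was -0.31 (adjusted p = 0.00189), and the median of all genes moved by -0.12. Neither Ab_IR nor L_IR passed against Ctrl, with adjusted p of 0.704 and 0.114, though L_IR passed without Ctrl replicate 1 (0.26, adjusted p = 0.0209, where 20.3% of all genes passed) and with all 12 libraries in 1 fit (0.22, adjusted p = 0.0131, where 21.3% did). Ggnbp1, which shares up to 437 exon bases with Bak1 on the other strand, was listed at 0.23 FPKM or less.

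Bcl2l11 (chr2:128126038-128162547, plus strand), the source of BIM, was listed at 3.08, 4.01 and 3.90 FPKM in Ctrl and 2.14, 2.14 and 1.81 in IR. Ab_IR had 4.14, 4.10 and 4.34, and L_IR had 3.85, 3.90 and 4.0. IR was again lower than the other 9 libraries, of which Ctrl replicate 1 was lowest and the other 8 lay between 3.85 and 4.34. The fall in IR relative to Ctrl was 1.80-fold (-0.62, SE 0.108, adjusted p = 0.00506). The gene was 2.07-fold higher in Ab_IR than in IR (0.78, SE 0.0612, adjusted p = 2.71e-05) and 1.93-fold higher in L_IR (0.70, SE 0.0579, adjusted p = 4.91e-05). Ab_IR and L_IR differed by 0.08 with an adjusted p of 0.204. A pro-survival gene and a BH3-only gene therefore fell in the same libraries, and the Bcl2 to Bcl2l11 ratio within a library was 0.994 ± 0.0865 in Ctrl, 1.07 ± 0.127 in IR, 1.05 ± 0.0376 for Ab_IR and 1.27 ± 0.0434 for L_IR (SD, n = 3).

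Pmaip1 (chr18:66458533-66465565, plus strand) encodes NOXA, which targets MCL1 for destruction. It was listed at 29.7, 32.0 and 26.0 FPKM in Ctrl, 33.9, 35.1 and 35.9 in IR, 26.0, 21.8 and 22.4 for Ab_IR and 22.8, 24.3 and 21.5 for L_IR. All IR libraries were highest, Ab_IR and L_IR overlapped each other, and L_IR lay below Ctrl. Relative to IR, Pmaip1 fell by 0.56 in Ab_IR (SE 0.0665, adjusted p = 2.17e-04) and dropped by 0.59 in L_IR (SE 0.0470, adjusted p = 3.93e-05) on the log2 scale. IR exceeded Ctrl by 0.26 with an adjusted p of 0.0538, which became 0.0385 (0.27) without Ctrl replicate 1, 0.0268 (0.32) without Ctrl replicate 2 and 0.0930 (0.18) without Ctrl replicate 3. It passed with median ratio scaling (0.30, adjusted p = 0.0307) and with immunoglobulin genes left out (0.34, adjusted p = 0.0332). All 12 libraries in 1 fit, without and with a term for the Nppa split, also passed it (adjusted p = 0.0257 and 0.0276). The remaining settings did not. Ab_IR and L_IR differed from Ctrl by -0.31 and -0.34, with adjusted p of 0.190 and 0.0794.

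Bid (chr6:120891930-120916853, minus strand), which links death receptors to mitochondria once cleaved by caspase-8, barely varied, from 21.3 to 24.8 FPKM over the 12 libraries. The group means were 22.5 ± 1.07 in Ctrl, 22.9 ± 0.822 in IR, 22.5 ± 0.893 for Ab_IR and 24.7 ± 0.139 for L_IR (SD, n = 3). L_IR passed against IR (0.11, SE 0.0316, adjusted p = 0.0217) and Ab_IR against L_IR (-0.13, SE 0.0397, adjusted p = 0.0375), but both calls depended on the setting. The first was lost with median ratio scaling (0.06, adjusted p = 0.140), with all 12 libraries in 1 fit (0.11, adjusted p = 0.104), with a term for the Nppa split of the libraries added to it (0.04, adjusted p = 0.661), and without IR replicate 1, IR replicate 2, L_IR replicate 2 or L_IR replicate 3 (0.08 to 0.13 over all libraries left out). The second was lost with no filter, no trend, all 12 libraries in 1 fit and the replicate block (all -0.13, adjusted p = 0.0560, 0.0540, 0.0914 and 0.103), and without any library other than Ab_IR replicate 2 (-0.16 to -0.11 over all libraries left out). With immunoglobulin genes left out the second difference was larger in size, and Ab_IR also passed against IR (-0.17, adjusted p = 0.0241). That setting moved the medians of all genes by -0.12 and -0.13, respectively. Bcl2l13 shares 628 exon bases with Bid on the other strand at 11.3 to 14.1 FPKM, and whether reads were assigned by strand is not stated.

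Bad (chr19:6941861-6951899, plus strand), the BH3-only gene whose protein is inactivated by growth factor signals through AKT, had 4.35, 7.0 and 7.05 FPKM in Ctrl. IR had 6.96, 7.49 and 8.63, Ab_IR 7.59, 8.48 and 8.44, and L_IR 7.35, 7.12 and 7.12. Ctrl replicate 1 was the low library. The difference of Ab_IR from L_IR passed (0.16, SE 0.0510, adjusted p = 0.0431) but was lost in 6 of the 9 other settings that tested the gene and without any library other than Ab_IR replicate 1. It shrank to 0.03 when immunoglobulin genes were left out, a setting that moved the median of all genes in this comparison by -0.12. When all 12 libraries were fitted with a term for the Nppa split, which only Ctrl replicate 1 separates from the groups, Bad was higher than in IR by 0.67 in Ab_IR and 0.50 in L_IR (adjusted p = 8.05e-04 and 0.00509), in place of 0.08 and -0.08 without passing. Gpr137 shares 524 exon bases with Bad on the other strand at 3.34 to 5.02 FPKM. Bmf was listed at 0.70, 0.45 and 0.51 FPKM in Ctrl, 0.47, 0.54 and 0.51 in IR, 0.59, 0.51 and 0.79 for Ab_IR and 0.69, 0.71 and 0.86 for L_IR. Bik was listed at 0.34 FPKM or less throughout and at 0 in Ctrl replicate 1, and both genes overlapped between neighbouring groups in the order of their means. L_IR lay above IR without overlap for both, at 0.69 to 0.86 against 0.47 to 0.54 FPKM for Bmf and 0.10 to 0.23 against 0.04 to 0.07 FPKM for Bik. Of all genes tested, 71.2% did not overlap there. Both genes passed in that comparison when no filter was applied, where 32.5% of all genes passed. Their levels lie near 0, where precision cannot be given.

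Counted over the family, IR against Ctrl had 3 of the 8 tested genes past an adjusted p of 0.05, with Bak1 higher and Bcl2 and Bcl2l11 lower, where 43.1% of all 12072 genes tested passed, 17.5% higher and 25.5% lower. There was no overlap between groups for 6 of the 8, beside 58.1% of all genes. The median log2 difference of the 8 was 0.10 beside -0.05 over all genes. Without Ctrl replicate 1, 6 of 8 passed, the additional genes being Bcl2l1, Mcl1 and Pmaip1, where 58.4% of all genes then passed. The contrasts of Ab_IR and of L_IR with IR gave larger counts. Ab_IR against IR had 5 of 8 past the threshold, 3 higher and 2 lower, with a background of 68.7% (39.4% higher and 29.4% lower). L_IR against IR had 6 of 8, 3 higher and 3 lower, with a background of 66.8% (40.8% higher and 26% lower). No overlap was seen for 5 and 6 of the 8, against 73% and 71.2% of all genes, and the median differences were 0.03 and -0.04 beside 0.06 and 0.07. These shares lay near the background, so the counts do not set the family apart from other genes. Both contrasts share the IR libraries.

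Bcl2, Bcl2l11, Bak1 and Pmaip1 passed in both contrasts with IR, each in 1 direction. Mcl1 passed in Ab_IR, and Bcl2l1 and Bid in L_IR. With immunoglobulin genes left out, Bcl2l1 and Bid also passed in Ab_IR against IR (-0.19 and -0.17, adjusted p = 0.0366 and 0.0241). The median of all genes moved by -0.13 there. In the direct contrast of Ab_IR with L_IR, 5 of 8 passed, with Mcl1 and Bad higher and Bak1, Bcl2 and Bid lower in Ab_IR, beside a background of 38% (18.2% higher and 19.8% lower), and 6 of 8 did not overlap beside 51.9%. The median difference was 0.06 against 0.01 over all genes. Leaving out L_IR replicate 1 or L_IR replicate 3 left Mcl1 alone past the threshold, leaving out Ab_IR replicate 3 or L_IR replicate 2 left Mcl1 and Bak1, and Bad or Bid joined these when Ab_IR replicate 1 or Ab_IR replicate 2, respectively, was left out. Mcl1 kept an adjusted p of 0.0110 or less throughout these.

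Against Ctrl the counts were small. In Ab_IR against Ctrl, limma called 0 of 8, with a background of 2.1% (1.45% higher and 0.651% lower). There 2 genes, Bcl2 and Pmaip1, had an unadjusted p under 0.05, a threshold at which the share of all genes was not computed. L_IR against Ctrl had 1 of 8, Bcl2, with a background of 8.84% (4.76% higher and 4.08% lower). That call was lost without Ctrl replicate 2 and without each L_IR library in turn, and Bak1 or Pmaip1 joined Bcl2 without Ctrl replicate 1 or Ctrl replicate 3, respectively, where 20.3% and 7.3% of all genes passed. The groups did not overlap for 3 of 8 and 6 of 8 genes, where 33.5% and 36.1% of all genes did not. The medians were 0.10 in both, beside 0.00 over all genes.

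With the study's added requirement of a more than 2-fold change, limma called 0 of the 8 genes in each of the 6 comparisons. In the order described above, 5, 5, 6, 6, 2 and 4 of them had an unadjusted p under 0.05. The share of all genes at that unadjusted threshold was not computed. The backgrounds of the 2-fold rule were 7.6%, 7.57%, 6.22%, 0.533%, 0.923% and 2.65%. On the means themselves, 2 genes (Bcl2 and Bcl2l11) differed more than 2-fold between Ab_IR and IR and 1 gene (Bcl2) between L_IR and IR. They also passed the rule at a pseudocount of 0.1 in place of 1.

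**Figure D2:**
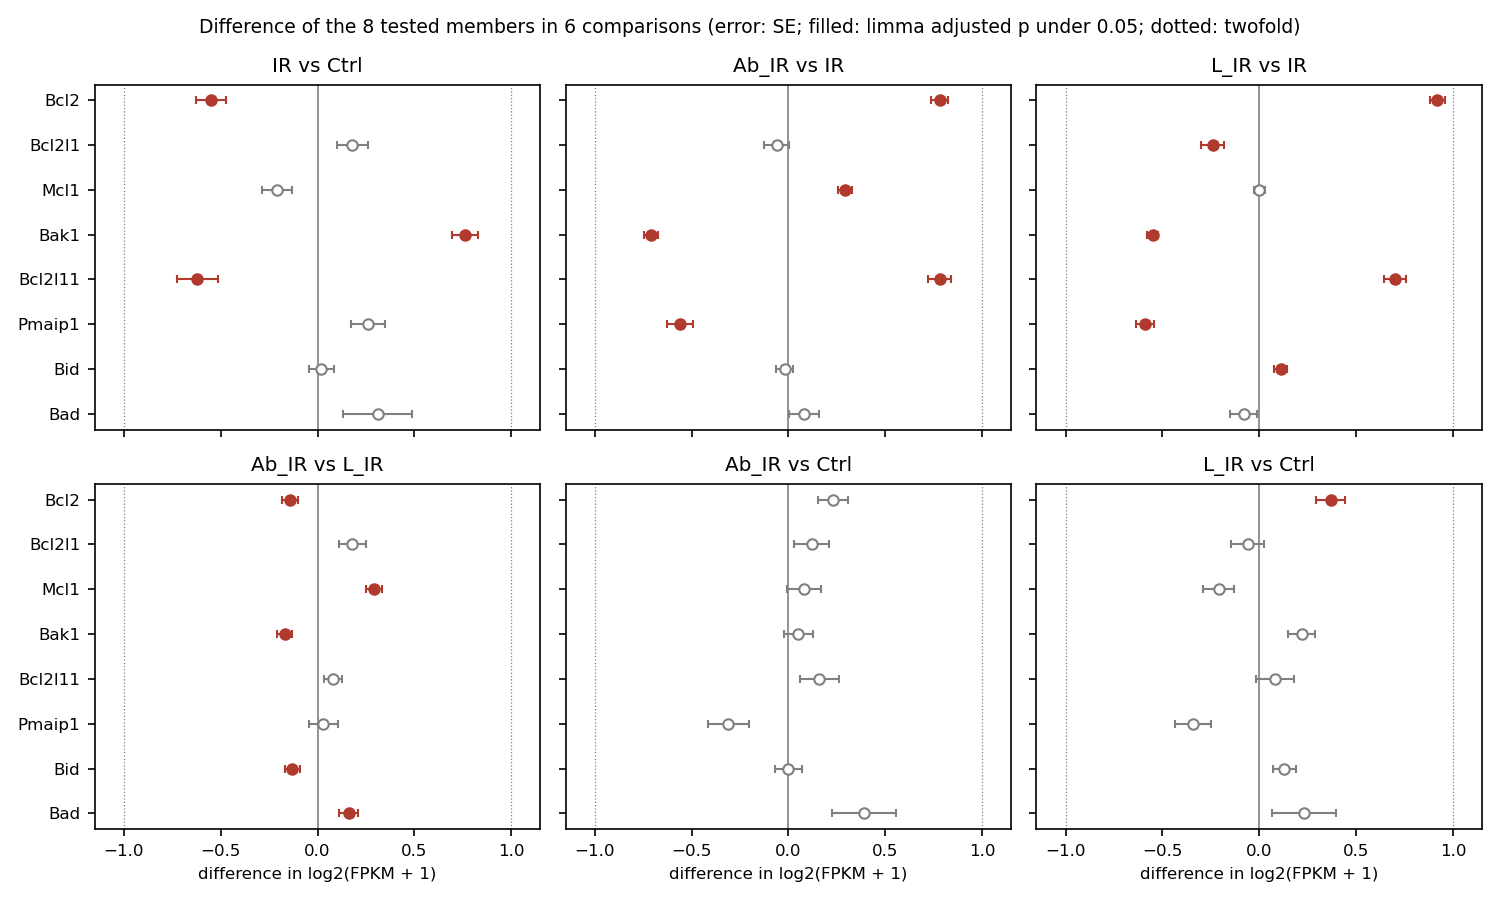
Difference in log2(FPKM + 1) of the 8 tested genes in 6 comparisons, with SE bars. Filled points passed an adjusted p of 0.05 (limma) and dotted lines mark a 2-fold change. Bcl2 and Bcl2l11 lie left and Bak1 right of 0 in IR against Ctrl, and on the opposite sides in Ab_IR and L_IR against IR.

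Ratios between members, chosen after the values were seen, were taken within a library, where scaling cancels. The Bak1 to Mcl1 ratio was 0.772, 0.593 and 0.752 in Ctrl, 1.42, 1.39 and 1.35 in IR, 0.649, 0.732 and 0.680 for Ab_IR and 0.960, 0.892 and 0.987 for L_IR. Bak1 transcripts thus exceeded Mcl1 transcripts in IR and stayed below them in the other 9 libraries, with L_IR between IR and the rest. The Bak1 to Bcl2 ratio was 17.0 ± 2.12 in Ctrl, 48.6 ± 1.95 in IR, 14.4 ± 0.432 for Ab_IR and 14.4 ± 0.18 for L_IR (SD, n = 3). The pro-survival genes summed to 97.0 ± 7.34 FPKM in Ctrl, 84.4 ± 1.43 in IR, 103 ± 2.51 for Ab_IR and 85.9 ± 2.52 for L_IR, and the 6 BH3-only genes to 62.3 ± 2.47, 68.1 ± 2.24, 59.1 ± 1.45 and 59.6 ± 1.35. The BH3-only sum over the pro-survival sum was 0.643 ± 0.0223 in Ctrl, 0.807 ± 0.0241 in IR, 0.573 ± 0.0134 for Ab_IR and 0.693 ± 0.00532 for L_IR, and no 2 groups overlapped. These sums cover members only and leave out the BH3-only Bbc3, the pro-survival Bcl2a1b and Bcl2l2, which are described below. The sums carry no test, and they weigh transcripts and not proteins.

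**Figure D3:**
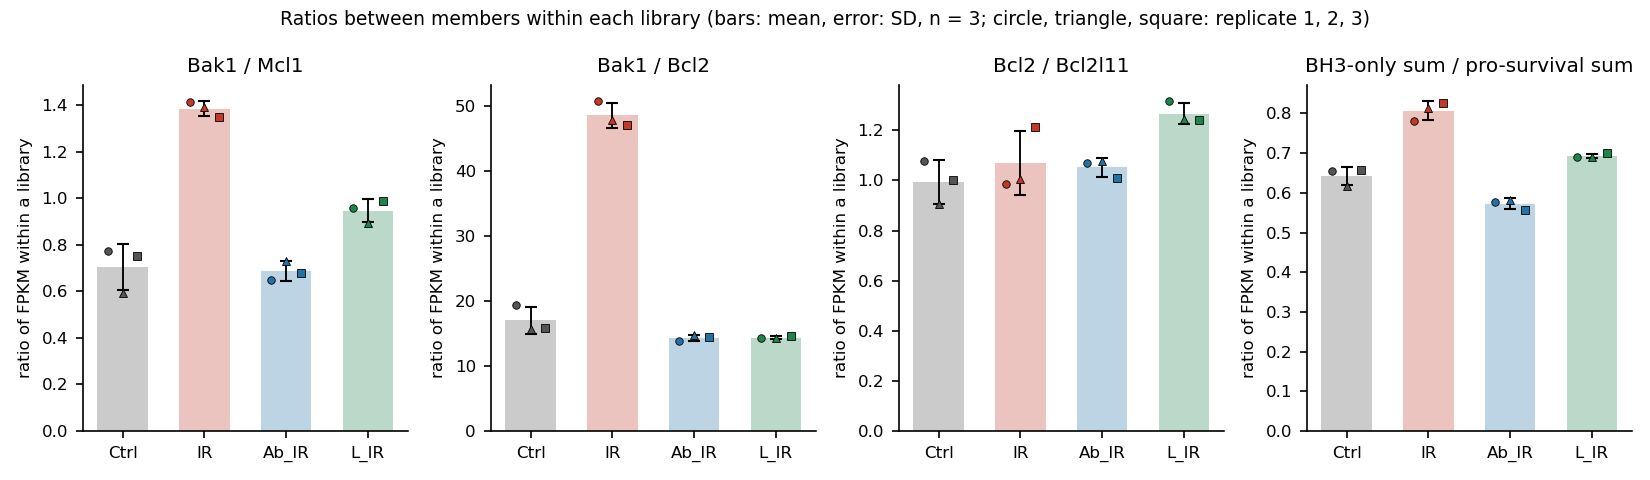
Ratios of FPKM within a library for Bak1 to Mcl1, Bak1 to Bcl2, Bcl2 to Bcl2l11, and the summed BH3-only to the summed pro-survival genes, by group. Bars are means, error bars SD of 3 libraries, and symbols the libraries. Bak1 to Bcl2 stands at 48.6 in IR and between 14.4 and 17.0 in the other groups.

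The other 15 genes of the family showed which partners moved beside these members. In IR against Ctrl, 5 of the 8 tested passed, 1 higher and 4 lower, beside 43.1% of all genes. Bax, the second effector, rose from 24.0 ± 4.49 to 32.6 ± 0.650 FPKM (log2 difference 0.44, SE 0.136, adjusted p = 0.0396), and Ctrl replicate 1 was lowest at 18.8. Bcl2l12 fell by 0.38, the mitophagy receptors Bnip3 and Bnip3l fell by 0.39 and 0.46, and the pro-survival Bcl2a1b fell by 0.77, all on the log2 scale, with adjusted p of 0.00960, 0.0113, 0.00420 and 0.0480. Bcl2a1b belongs to near-identical copies with Bcl2a1a and Bcl2a1d, between which reads may be split. Bcl2l2 (0.11, adjusted p = 0.411), Bcl2l13 (-0.16, 0.120) and Bbc3 (0.25, 0.227) did not pass.

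Against IR, 4 of 8 passed in Ab_IR and 5 of 9 in L_IR, all of them higher, where 68.7% and 66.8% of all genes passed (39.4% and 40.8% higher). Bcl2l12 reached 10.5 FPKM in Ab_IR and 8.11 in L_IR against 6.07 in IR (0.70 and 0.36, adjusted p = 1.01e-05 and 0.00186), and Bnip3l reached 31.5 and 28.1 against 22.2 (0.48 and 0.33, adjusted p = 6.81e-05 and 1.55e-04). Bbc3, the source of PUMA, was listed at 1.49, 1.77 and 2.52 FPKM in Ctrl, 2.25, 2.26 and 2.86 in IR, 3.46, 3.93 and 4.05 for Ab_IR and 4.20, 4.51 and 4.19 for L_IR. It was thus highest in Ab_IR and L_IR, with differences from IR of 0.48 and 0.62 (adjusted p = 0.00178 and 3.54e-04), and L_IR also passed against Ctrl (0.87, SE 0.136, adjusted p = 0.0127). PUMA and NOXA transcripts, both textbook p53 targets, therefore differed from IR in opposite directions. Bcl2a1b and, in L_IR, Bcl2a1d passed as well, with the same doubt on reads. Bax in Ab_IR and L_IR differed from IR by -0.07 and -0.04, with adjusted p of 0.176 and 0.416.

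In Ab_IR against L_IR, 3 of 9 passed, all higher in Ab_IR, beside 38% of all genes (18.2% higher), and these were Bcl2l12 (0.34), Bnip3 (0.23) and Bnip3l (0.15). L_IR against Ctrl had 2 of 10, Bbc3 higher and Bnip3 lower (-0.46, adjusted p = 0.00987), beside 8.84% of all genes. Ab_IR against Ctrl had 0 of 10 by limma, beside 2.1% of all genes. At an unadjusted p under 0.05 there were 4 of 10, and the share of all genes at that threshold was not computed. The median difference of the tested genes was -0.27 in IR against Ctrl, 0.32 in Ab_IR against IR and 0.33 in L_IR against IR, beside -0.05, 0.06 and 0.07 over all genes.

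Downstream of the mitochondria, 9 of 17 apoptosome and caspase genes passed in IR against Ctrl, 6 higher and 3 lower, beside 43.1% of all genes. The inhibitor gene Birc2 fell from 10.4 to 6.3 FPKM (-0.64, SE 0.0769, adjusted p = 0.00115). Endog, a mitochondrial nuclease, rose by 1.05 (adjusted p = 0.00824), and Birc6, which marks apoptotic proteins for degradation, by 0.54 (adjusted p = 0.0232). Against IR, 11 of 17 passed in Ab_IR, 5 higher and 6 lower, and 11 of 17 in L_IR, 4 higher and 7 lower, beside 68.7% and 66.8% of all genes. Apaf1, the scaffold of the apoptosome, was at 19.97 FPKM in IR, 12.7 in Ab_IR and 14.3 in L_IR (-0.61 and -0.45, adjusted p = 9.8e-06 and 1.46e-05). Cycs, which encodes cytochrome c, fell from 71.3 FPKM to 51.8 in Ab_IR and 50.7 in L_IR (-0.45 and -0.48, adjusted p = 2.41e-05 and 6.88e-06), and Casp6 rose in both by 0.73 and 0.53 (adjusted p = 6.90e-05 and 1.06e-04). Birc6 was at 4.72 FPKM in Ab_IR, 10.3 in IR and 8.15 in L_IR, and fell in Ab_IR relative to both (-0.98 and -0.68, adjusted p = 1.49e-06 and 1.29e-04). In Ab_IR against L_IR, 6 of 17 passed, 3 each way, beside 38% of all genes, among them Birc5 (0.45) and Aifm1 (-0.21).

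The list of death receptor genes also held the DNA fragmentation factor genes Dffa and Dffb. Of this list, 3 of 10 passed in IR against Ctrl, all higher, which is below the 43.1% of all genes. The TNF receptor gene Tnfrsf1a rose by 0.56 (adjusted p = 0.00107), the TRAIL receptor gene Tnfrsf10b by 0.47 at 1.31 FPKM (0.0247) and the adaptor kinase gene Ripk1 by 0.37 (0.00561). Against IR, 6 of 10 passed in Ab_IR, 1 higher and 5 lower, and 7 of 10 in L_IR, all lower, beside 68.7% and 66.8%. The gene higher in Ab_IR was Dffb, and Dffa was among the lower genes in both. Tnfrsf1a, Tnfrsf10b and Ripk1 were lower in Ab_IR by log2 differences of -0.46, -0.71 and -0.51, and lower in L_IR by -0.62, -0.41 and -0.33. In Ab_IR against L_IR, 4 of 9 passed, beside 38% of all genes, and the largest were Tradd (0.32), Cflar (-0.20) and Ripk1 (-0.18).

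Of 12 upstream regulators of the family, 10 passed in IR against Ctrl, 2 higher and 8 lower, beside 43.1% of all genes. The stress factor gene Ddit3 (CHOP) fell by 0.69, and the forkhead factor genes Foxo3 and Foxo1, known to drive Bcl2l11, fell by 0.56 and 0.52, with adjusted p of 0.00284, 0.00963 and 0.0150. Ab_IR against IR had 11 of 12, 8 higher and 3 lower, and L_IR against IR had 10 of 12, 8 higher and 2 lower, beside 68.7% and 66.8%. Ddit3 rose by 0.97 and 0.93 (adjusted p = 1.48e-05 and 1.91e-05), Foxo1 by 0.53 and 0.65 (1.44e-04 and 1.06e-04) and the cytokine signal transducer gene Stat5a by 0.44 and 0.54 (7.45e-05 and 2.47e-05), in Ab_IR and L_IR respectively. Huwe1 and Usp9x, which add and remove ubiquitin on MCL1, were lower in Ab_IR than in IR (both -0.75, adjusted p = 1.64e-05 and 4.43e-06) and than in L_IR (-0.73 and -0.58, adjusted p = 1.56e-04 and 2.56e-04). Bag1, which encodes a BCL2-binding chaperone regulator, exceeded L_IR by 0.26 in Ab_IR (adjusted p = 0.00268). The median difference of the 12 was -0.39 for IR against Ctrl, 0.35 for Ab_IR against IR and 0.28 for L_IR against IR, and 4 of 12 passed in Ab_IR against L_IR, beside 38% of all genes. For the apoptosome list the medians were 0.20, -0.11 and -0.08, and for the death receptor list 0.24, -0.13 and -0.16, beside the medians over all genes given above. Against Ctrl, limma called 0 of 17, 0 of 9 and 0 of 12 genes of these lists in Ab_IR, and 0 in L_IR. There 2.1% and 8.84% of all genes passed the adjusted threshold. At an unadjusted p under 0.05 there were 3, 1 and 3 in Ab_IR and 3, 0 and 3 in L_IR. The share of all genes at the unadjusted threshold was not computed.

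**Figure D4:**
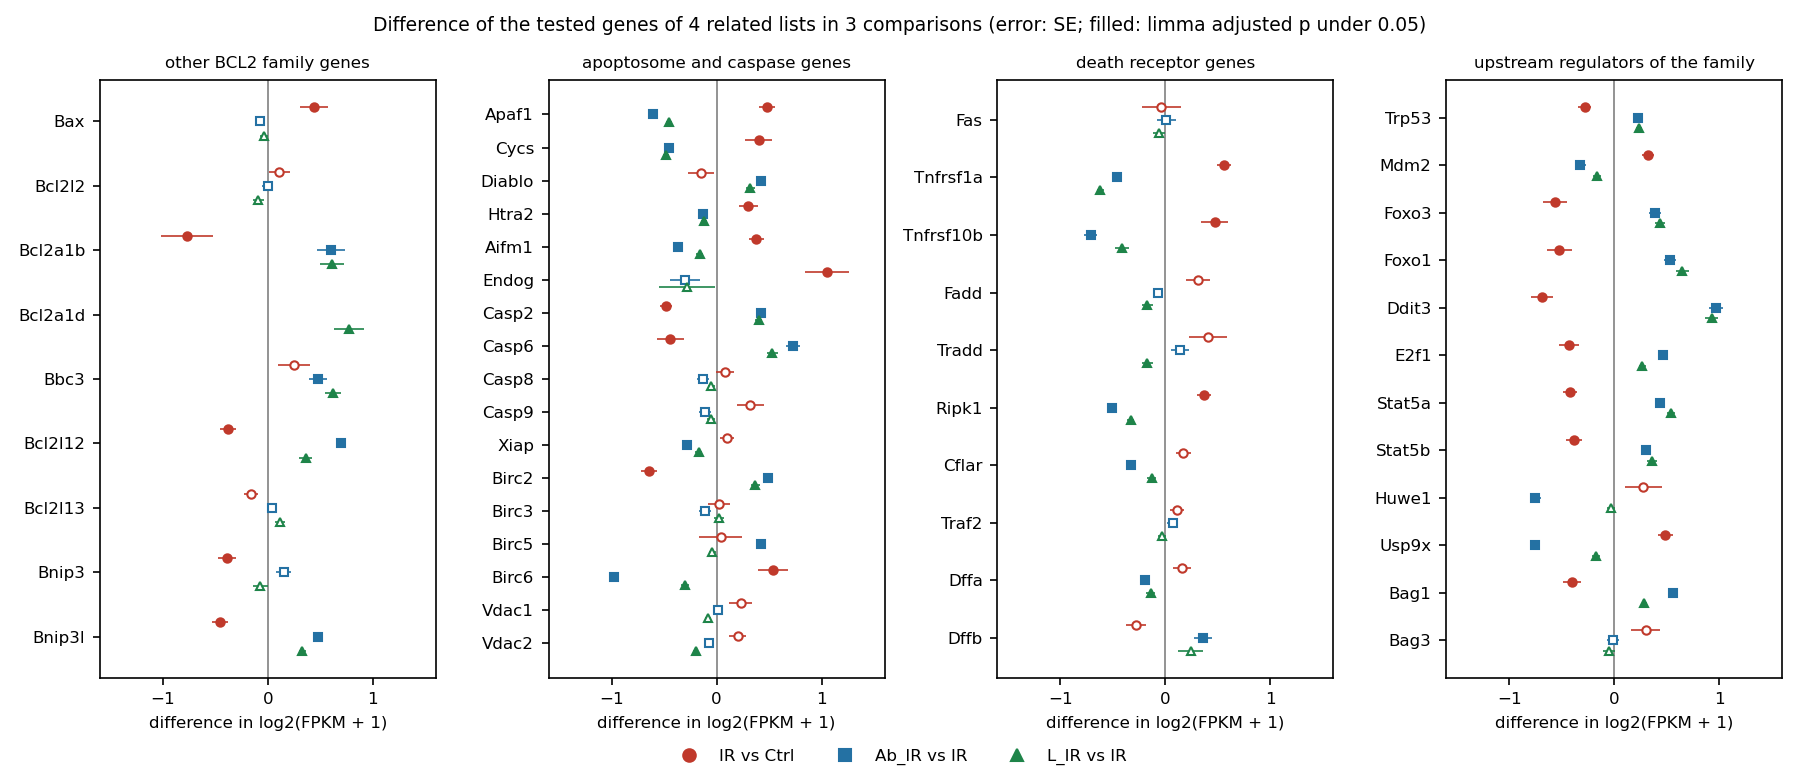
Difference in log2(FPKM + 1) with SE bars for the tested genes of 4 related lists, in IR against Ctrl (circles), Ab_IR against IR (squares) and L_IR against IR (triangles). Filled symbols passed an adjusted p of 0.05 (limma). Apaf1 lies at 0.48 in the first comparison and at -0.61 and -0.45 in the others.

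Genes whose levels resembled the members most were found by Pearson's r of log2(FPKM + 1) over the 12 libraries among 4506 genes. The libraries share their groups, so these values are descriptions. Anxa6 had r = 0.993 with Bcl2, with 41.0 FPKM in Ctrl, 24.0 in IR, 50.9 for Ab_IR and 56.9 for L_IR, and Pisd-ps1 (0.993) and Itgb7 (0.987) followed the same order of groups. Bak1 was closest to Pik3r5 (0.996), Nadk (0.993) and Wdr1 (0.992), and Pik3r5 had 6.66, 18.0, 6.93 and 9.05 FPKM. Bcl2l11 was closest to H2-DMa (0.992), Ccl4 and Ctdsp2 (both 0.983), Mcl1 to Cnih1 (0.967), Arl6ip6 (0.964) and Btf3 (0.961), and Pmaip1 to Ube2d3 (0.980), Eif2s2 (0.973) and Cnot7 (0.972). The nearest genes were less close for Bad (Timm13, 0.959, Rnaseh2c, 0.958, and Cib1, 0.957), Bid (Git1, 0.907, Polr1b, 0.905, and Parp1, 0.888) and Bcl2l1 (Pstpip1, 0.885, Slc1a5, 0.863, and Arf6, 0.856).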

How the data were processed

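The 12 libraries were stranded poly(A) RNA-seq libraries, 3 per group, grouped by the labels. The submitters' processing notes name fastp, HISAT2, StringTie and GRCm38 (mm10), whereas the methods name fastp, RSEM and DESeq2, and versions of the former are not given. The authors deposited 1 value per gene and library, read here as FPKM from the values because the files name no unit, with sums of 344338 to 405123. A gene is called listed at 0 where the value is 0.

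The authors' count test could not be applied to FPKM. limma 3.58.1 in R 4.3.3 (lmFit and trended eBayes) compared log2(FPKM + 1) between each pair of groups. A gene was tested where 3 or more of the 6 libraries reached 1 FPKM, with Benjamini-Hochberg adjustment over all genes tested, and tested on simulated data. Adjusted p-values come from this fit unless another setting is named beside them. Named were all members, the tested other family genes, the 3 largest differences past the threshold per further list and comparison, and the 3 closest genes by r per member (mean of at least 10 FPKM, without predicted genes, clones and immunoglobulins). Of the apoptosome and caspase list, 17 genes were used, and some results of that list are not reported here. The members, lists and alternatives were chosen with earlier results of these data known. Positions come from GENCODE M21 and promoters from RefSeq (GRCm38.p6). Same-numbered libraries of different groups were checked for shared deviations (r of -0.27 to 0.21, above 0.1 in 2 of 18 pairs), and the numbers were not taken as pairs. Alternatives were another pseudocount, other filters and scalings, no trend, all 12 libraries in 1 fit, with and without the Nppa split, a replicate block, and leaving out each library. Plots used matplotlib 3.10.9 and Python 3.11.15.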

Additional observations from a re-analysis of the deposited data

How the results depend on the processing

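Among values of single genes, 398 of 456 kept direction and side of the threshold under the 10 other settings, and 243 of 288 when a library was left out. A mean of at least 10 FPKM left only Mcl1, Bak1, Bid and Pmaip1 of the members to be tested. The count of members past adjusted p 0.05 then became 1 for IR against Ctrl, 3 for Ab_IR against IR and 3 for L_IR against IR. It was 3 for Ab_IR against L_IR and 0 for L_IR against Ctrl. The shares of all genes that passed were 45.4%, 72.9%, 72.0%, 49.4% and 11.4% in the same order. Quantile normalization gave 5 for IR against Ctrl, where 39.8% of all genes passed. Median ratio scaling and leaving out immunoglobulin genes each gave 4 for IR against Ctrl, where 42.6% and 38.2% did. Without a filter, which tests all 10 members, L_IR against IR had 8, with Bmf and Bik past the threshold. Ab_IR against L_IR had 2 and L_IR against Ctrl 0. In these 32.5%, 13.6% and 2.5% of all genes passed. All 12 libraries in 1 fit gave 5 for IR against Ctrl, 2 for Ab_IR against L_IR, 2 for Ab_IR against Ctrl and 4 for L_IR against Ctrl, where the share of all genes that passed went from 43.1%, 38.0%, 2.1% and 8.8% to 53.7%, 19.2%, 18.3% and 21.3%. The Nppa split as a further term gave 6 for IR against Ctrl and 4 each for Ab_IR and L_IR against Ctrl, where 63.4%, 58.0% and 53.7% of all genes passed. With the 2-fold rule, the pseudocount of 0.1 gave 2 for Ab_IR and 1 for L_IR against IR, where 1512 of 12067 and 1294 of 12163 genes passed. The Nppa term gave 1 and 1, where 2079 and 1662 of 12699 did. The causes were not tested. The replicate number as a block gave 1 for Ab_IR against L_IR and 0 for L_IR against Ctrl (28.3% and 4.3% of all genes). It changed no other count of members, and the numbers do not pair the samples.

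Leaving out each library gave 3 to 6 for IR against Ctrl (28.2% to 58.4% of all genes) and 5 to 5 for Ab_IR against IR (62.4% to 65.3%). It gave 5 to 6 for L_IR against IR (60.8% to 62.0%) and 1 to 3 for Ab_IR against L_IR (26.8% to 34.4%). Against Ctrl it gave 0 to 0 for Ab_IR (0.5% to 5.6%) and 0 to 2 for L_IR (3.3% to 20.3%). Signs turned only for differences that had not passed. These were, with quantile normalization, Bid in IR against Ctrl (-0.02), Bad in Ab_IR against IR (-0.00), Mcl1 in L_IR against IR (0.04), Pmaip1 in Ab_IR against L_IR (-0.02), and Mcl1 and Bak1 in Ab_IR against Ctrl (-0.05 and -0.07). Without immunoglobulin genes they were Bad in Ab_IR against IR (-0.06), Bcl2l11 and Pmaip1 in Ab_IR against L_IR (-0.04 and -0.11), Bak1 in Ab_IR against Ctrl (-0.02) and Bcl2l1 in L_IR against Ctrl (0.00). With the Nppa term they were Mcl1 and Bad in L_IR against IR (0.09 and 0.50, the latter past the threshold) and Bak1 in Ab_IR against Ctrl (-0.03), and with median ratio scaling Bid in Ab_IR against Ctrl (0.01). Leaving out a library turned Bid in IR against Ctrl (-0.02 to 0.04), Ab_IR against IR (-0.05 to 0.00) and Ab_IR against Ctrl (-0.04 to 0.02), Mcl1 in L_IR against IR (-0.02 to 0.02), Pmaip1 in Ab_IR against L_IR (-0.04 to 0.08) and Bcl2l11 in L_IR against Ctrl (-0.01 to 0.14).

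Leaving out immunoglobulin genes moved the median of all genes by -0.13 in Ab_IR against IR and by -0.12 in Ab_IR against L_IR, and the share of calls that were higher went from 57.3% to 41.4% and from 47.9% to 16.2%. Members past the threshold were then 7 and 4, beside 67.5% and 40.6% of all genes. Bcl2l1 and Bid were the members added in Ab_IR against IR (-0.19 and -0.17, adjusted p = 0.0366 and 0.0241). In Ab_IR against L_IR, Bak1, Bcl2 and Bid stood at -0.31, -0.26 and -0.27. In IR, Ab_IR and L_IR against Ctrl the share went from 40.7% to 50.6%, from 69.0% to 53.5% and from 53.8% to 66.2%. Quantile normalization moved that share from 40.7% to 50.9% in IR against Ctrl, from 57.3% to 46.8% in Ab_IR against IR and from 61.0% to 48.5% in L_IR against IR. The depth behind FPKM is unknown, so the precision of Bmf and Bik, under 1 FPKM, cannot be given.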

Other observations

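Of the family genes outside the members, Hrk was listed at 0.01 FPKM or less and Bcl2l10 at 0.08 or less in all 12 libraries. Bok reached 0.52 FPKM and Bcl2l14 0.35. Bcl2l15 had 0.34, 0.55 and 0.84 FPKM in IR and 0.12 to 0.39 in the other 9 libraries, and none of these 5 genes passed the filter. Pmaip1 exceeded Bid in all Ctrl and IR libraries, with a within-library ratio of 1.30 ± 0.190 in Ctrl and 1.53 ± 0.0552 in IR, and stood at 1.05 ± 0.118 in Ab_IR and 0.925 ± 0.0563 in L_IR (SD, n = 3). Bak1 exceeded Bax in all 12 libraries, by a ratio of 2.64 ± 0.701 in Ctrl, 3.21 ± 0.0956 in IR, 2.05 ± 0.0966 for Ab_IR and 2.25 ± 0.0603 for L_IR, and Ctrl replicate 1 had the highest ratio of the 12 at 3.44.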
